A study of Mus musculus with 4 samples.

Results

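The genes described here are 8 mouse genes of the 2-cell embryo: Zscan4b, Zscan4c, Zscan4d, Zscan4e, Tdpoz3, Usp17la, Tcstv3 and Zfp352. They were chosen by gene symbol, and 8 genes of 22180 with a probe set of their own on the array are members. A probe set is the group of probes that the array reads as 1 feature. Each member has 1 probe set of its own, and a further 2 probe sets carry the symbols of 6 Zscan4 genes together, so 10 of 41345 probe sets were followed. They were read on 4 arrays of total RNA, 1 array for each of 4 groups. Both day 6 cultures were bulk cultures of reprogrammable mouse embryonic fibroblasts sampled on day 6 of doxycycline exposure. In 1 of them Firefly luciferase, an insect gene that mouse cells lack, was targeted as the control, and in the other Sumo2 was. The other arrays held induced pluripotent stem cells (iPSC) that came from Sumo2 knockdown fibroblasts and are labelled 38 h and 10 day. What those times count is not given in the labels, nor is the number of clones behind each array. All 4 groups share the strain Black6-129X1/SvJ, a pool of male and female material, medium for embryonic stem cells with 20% serum, and, in the labels, ascorbic acid and doxycycline as the treatment of the starting fibroblasts.

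When the mouse embryo first switches on its own genome, at the 2-cell stage, it transcribes a set of genes that are silent in most other cells. Cultures of pluripotent stem cells express the same set in a small and shifting fraction of their cells, so a bulk RNA sample of such a culture reads an average over few positive and many negative cells. The transcription factor Dux can switch the set on, Dppa2 and Dppa4 act ahead of it, and chromatin repressors, the SUMO conjugation system among them, have been reported to hold it off in embryonic stem cells. The Zscan4 family holds genes for SCAN domain and zinc finger proteins linked to telomere lengthening, though RefSeq lists Zscan4a and Zscan4e as pseudogenes. Its several near-identical copies lie in 1 cluster. Tdpoz3 belongs to a family with TD and POZ domains, Usp17la (also named Dub1) encodes a deubiquitinating enzyme, Tcstv3 belongs to a 2-cell stage family of variable members, and Zfp352 encodes a zinc finger protein. A bulk array cannot tell more positive cells from more RNA per positive cell.

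The Zscan4 copies resemble each other closely in their promoters. Their transcripts, which the probes read, were not compared here. RefSeq promoter windows of build GRCm38.p6, each running from 250 bases before to 50 bases after the annotated start, were found for 5 of 8 members. Those of Zscan4b, at chr7:10905001-10905300 on the minus strand, Zscan4c, at chr7:11005495-11005794 on the plus strand, and Zscan4d, at chr7:11166099-11166398 on the minus strand, are shown because these 3 copies moved together on the arrays. The Zfp352 window, at chr4:90218570-90218869 on the plus strand, is shown for contrast, as this member moved far less. In the Zscan4 windows the capitals mark TATAAA, and in the Zfp352 window they mark a repeated GGACAACACAC.
Zscan4b: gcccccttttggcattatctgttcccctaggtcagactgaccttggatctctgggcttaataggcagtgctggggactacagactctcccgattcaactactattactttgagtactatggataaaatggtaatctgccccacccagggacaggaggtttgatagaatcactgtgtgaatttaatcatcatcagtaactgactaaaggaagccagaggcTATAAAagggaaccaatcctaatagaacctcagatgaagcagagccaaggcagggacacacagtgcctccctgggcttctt
Zscan4c: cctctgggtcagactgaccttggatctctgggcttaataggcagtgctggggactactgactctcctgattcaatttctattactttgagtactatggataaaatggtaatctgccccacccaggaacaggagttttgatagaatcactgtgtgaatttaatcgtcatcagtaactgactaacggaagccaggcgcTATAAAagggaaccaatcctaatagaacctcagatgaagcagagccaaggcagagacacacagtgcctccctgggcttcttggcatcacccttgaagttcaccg
Zscan4d: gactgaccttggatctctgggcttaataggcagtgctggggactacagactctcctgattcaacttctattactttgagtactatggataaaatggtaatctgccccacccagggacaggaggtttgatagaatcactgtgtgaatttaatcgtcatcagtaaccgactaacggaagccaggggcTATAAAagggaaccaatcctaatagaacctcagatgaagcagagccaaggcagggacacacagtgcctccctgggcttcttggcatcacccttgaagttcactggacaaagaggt
Zfp352: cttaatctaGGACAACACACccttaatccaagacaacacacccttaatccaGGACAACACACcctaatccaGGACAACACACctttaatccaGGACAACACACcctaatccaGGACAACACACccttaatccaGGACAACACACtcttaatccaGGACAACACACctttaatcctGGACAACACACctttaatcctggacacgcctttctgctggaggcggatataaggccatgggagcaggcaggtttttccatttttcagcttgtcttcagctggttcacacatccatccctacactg
Over the stretch that aligned, without gaps, Zscan4b was 95.3% identical to Zscan4c (13 mismatches in 277 positions) and 97.7% identical to Zscan4d (6 in 266), and Zscan4c was 97.6% identical to Zscan4d (7 in 287). The window of Zscan4f, a copy with no probe set of its own, was 99.3% identical to that of Zscan4c. On both strands TATAAA was found in 13.6% of all 32851 windows and once in each of the 3 Zscan4 windows shown, with its first base 31 bases before the annotated start in Zscan4b, 54 in Zscan4c and 65 in Zscan4d. CCAAT was found in 37.4% of all windows, once in each of these 3 and on the reverse strand of Usp17la, but not in Zfp352. No stretch of 11 bases is more frequent in the Zfp352 window than GGACAACACAC, which was taken as the first of those that tie. It was picked after that window had been read. It occurs 8 times there and in no other window of the 32851 on either strand. These matches describe letters in a window of 300 bases and nothing beyond it.

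The labels were checked against marker genes first. Sumo2 itself read 10.65 on the Firefly array and 10.56 on the array labelled Sumo2 knockdown (log2 expression on the RMA scale, the unit of all levels below), so its transcript does not show the knockdown, and every direction drawn from that culture rests on its label. Nanog, a core pluripotency factor, read 7.54, 9.87, 12.05 and 12.50 in the order Firefly, Sumo2, 38 h and 10 day, Sox2 read 6.10, 6.55, 12.03 and 11.96, and the fibroblast surface marker Thy1 read 11.71, 11.23, 8.85 and 8.69. Of 16 naive pluripotency markers 13 rose from day 6 to iPSC by the limma rule given below and Klf4 fell (not without the Sumo2 or the 38 h array). Of 11 fibroblast markers Thy1, Prrx1 and Twist1 fell (Twist1 by -1.37 without the Firefly array, a call lost there), Postn rose and 7 did not pass. Of those 7, Col1a1 averaged 10.44 at day 6 and 10.51 in iPSC, and Col3a1 8.0 and 8.07. Col1a2, Dcn, Lum, Pdgfrb and S100a4 averaged lower in iPSC. The summed linear level of the 11 was 12500, 9550, 5750 and 4610. By the limma rule 7.83% of all single-symbol probe sets rose and 5.29% fell. A fit without 1 array leaves a single array on its side, which is assumed to vary like the pair on the other side, here and in all such fits below. The measuring floor used below is the median of all probe sets with 1 gene symbol, 6.64 to 6.67 on the 4 arrays. This floor is a convention, as no background probes were read. A value under it was taken as not told from background, which was not tested, and a fold marked "at least" counts such values as equal to the floor.

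All 4 Zscan4 members were below the floor at day 6 and far above it in both iPSC lines. Zscan4e, which RefSeq lists as a pseudogene, read 3.99 on the Firefly array, 4.18 on the Sumo2 array, 10.96 in the 38 h line and 10.90 in the 10 day line. Zscan4b read 5.07, 4.72, 10.61 and 10.59 in the same order. Neither gene had a value between 5.07 and 10.59, so the iPSC arrays stood clear of the day 6 arrays by a wide gap. Averaged over the 2 arrays on each side, the iPSC lines exceeded the day 6 cultures by a log2 difference of 6.84 for Zscan4e (SE 0.17, limma adjusted p = 0.000813), at least 19.3-fold. For Zscan4b it was 5.71 (SE 0.19, limma adjusted p = 0.000813), at least 15.4-fold.

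Zscan4c, the copy most often studied in stem cells, read 5.58, 4.68, 9.73 and 9.85, and Zscan4d, the copy best known from the 2-cell embryo, read 6.44, 5.87, 9.08 and 9.16. Both iPSC lines were again above both day 6 cultures without overlap. Zscan4c rose by 4.66 (SE 0.32, limma adjusted p = 0.00174), at least 8.78-fold. Zscan4d had the smallest rise of the 4, 2.97 (SE 0.24, limma adjusted p = 0.00234), at least 5.52-fold, and the highest day 6 readings. Because a dim probe set may read background at day 6, the order of these differences may rest partly on each probe set's own background. These 4 calls also passed in all alternatives run, among them the fits without 1 array.

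The 2 probe sets shared by Zscan4a, Zscan4b, Zscan4c, Zscan4d, Zscan4e and Zscan4f gave the same pattern. The first (probe set 17473703) read 5.31, 5.19, 10.22 and 10.28, and the second (17473713) read 5.26, 5.43, 10.88 and 10.99. Their log2 differences were 5.0 (SE 0.17) and 5.59 (SE 0.17), both at a limma adjusted p of 0.000813, at least 12.1-fold and 19.4-fold. These probe sets carry 6 genes at once, and how far the single-symbol probe sets also read near-identical copies was not tested, so the 6 readings are not counted as 6 separate genes.

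The other 4 members rose less or did not pass. Tdpoz3 read 4.57 and 4.40 at day 6, 6.34 in the 38 h line and 9.0 in the 10 day line, so only the last value was above the floor. Its log2 difference was 3.19 (SE 0.81, limma adjusted p = 0.0441), at least 2.25-fold. This call was lost without the Firefly array (adjusted p = 0.174), without the Sumo2 array (0.162) and with no intensity trend in limma (0.0511), within a range of 0.000615 to 0.174 over its 10 alternatives. Usp17la read 5.32, 5.52, 6.44 and 7.57, again above the floor in the 10 day line alone, and rose by 1.59 (SE 0.38, limma adjusted p = 0.0364), at least 1.37-fold. Without the Firefly array its adjusted p was 0.174 and without the Sumo2 array 0.119 (range 0.0032 to 0.174 over 10 alternatives). For both genes the groups did not overlap, but the lines lay far apart.

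Zfp352 read 5.30, 5.68, 6.61 and 6.62 and so stayed under the floor on every array, by little in the iPSC lines. Its log2 difference of 1.12 (SE 0.19, limma adjusted p = 0.0137) passed the rule, yet counted from the floor there is no difference. Without the Firefly array it came to 0.94 at an adjusted p of 0.0742 (range 0.0109 to 0.0742 over 8 alternatives). Tcstv3 read 4.40, 4.36, 4.69 and 6.60, also under the floor throughout, and did not pass (log2 difference 1.27, 95% interval -0.20 to 2.74, limma adjusted p = 0.18). It passed only without the 38 h array, where the difference was 2.22 at an adjusted p of 0.0019 (range 0.0019 to 0.386 over 8 alternatives).

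**Figure D1:**
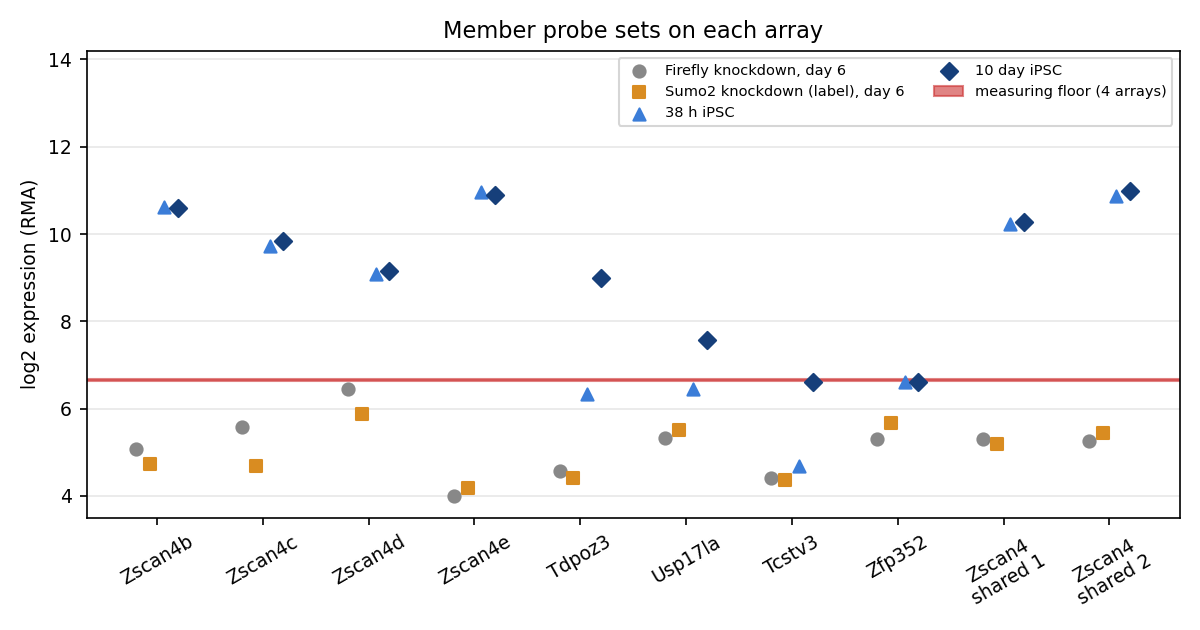
Log2 RMA expression (vertical axis) of the 8 members' own probe sets and of the 2 probe sets shared by 6 Zscan4 genes, with 1 point for each of the 4 arrays; the red line is the measuring floor of 6.64 to 6.67. All Zscan4 points of both iPSC lines lie at 9.08 or above and all day 6 points at 6.44 or below, while Tdpoz3, Usp17la and Tcstv3 are highest in the 10 day line.

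In all, 9 of 10 member probe sets rose at least 2-fold at an adjusted p under 0.05, all but Tcstv3, against a background of 9.06% of all 41345 probe sets (3744) that rose by the same rule. The members were chosen with earlier results of these data known, so this count is a description and no test. The 6 Zscan4 readings in it are not counted as separate genes. Among the probe sets under the floor on both day 6 arrays, as all 10 were, 8.13% rose, and among those under the floor on all 4 arrays, as Zfp352 and Tcstv3 were, 2.74%. The median log2 difference of the 8 own probe sets was 3.08, beside -0.04 over all probe sets. Values taken from the floor put that median at 1.82. The lowest iPSC value was above the highest day 6 value for all 10, which holds for 31.3% of all probe sets, and the gap was at least 4-fold for the 6 Zscan4 probe sets among them, which holds for 1.34%. The test has 2 residual degrees of freedom, and its spread includes the knockdown and the difference between lines. Both iPSC arrays came from Sumo2 knockdown fibroblasts, and at day 6 only the Sumo2 culture carries that label. No iPSC array came from the Firefly control, so the change to iPSC and the knockdown cannot be fully told apart. Against the Sumo2 array alone the median of the 8 own probe sets was 3.26.

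Further copies of these families followed only in part. Of 16 other probe sets with Zscan4, Tdpoz, Usp17l, Tcstv or Zfp353 symbols, 5 rose and none fell by the limma rule, beside 9.06% and 4.18% of all probe sets. At an unadjusted p under 0.05, 9 were higher and 1 lower, beside 20.8% and 16.6% of all probe sets, and 10 of the 16 were under the floor on all arrays. Zscan4a read 6.82, 6.66, 8.08 and 7.75 and rose by 1.17 (SE 0.20, limma adjusted p = 0.0137), a call lost without the Firefly array (adjusted p = 0.0704) and without the Sumo2 array (0.072). It alone among the Zscan4 probe sets was at or above the floor on an array at day 6. Usp17le read 5.52, 6.19, 8.58 and 9.37 and rose by 3.12 (SE 0.35, limma adjusted p = 0.00481), and Usp17lb read 4.11, 4.36, 5.91 and 6.13 and rose by 1.79 (SE 0.17, limma adjusted p = 0.00315) while staying under the floor. Within that enzyme family Usp17ld, at 7.98, 8.43, 8.96 and 9.73, just missed the threshold (1.14, limma adjusted p = 0.052). The remaining calls were the 2 probe sets shared by Tdpoz5 and Tdpoz7, which gave the same values on every array and so are not separate readings (1.45, limma adjusted p = 0.0174, lost at 0.11 without the Firefly and at 0.0686 without the Sumo2 array). With the Firefly array left out 2 of the 16 rose, with the Sumo2 array left out 3, and with the 38 h array left out 8.

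The day 6 comparison asked whether Sumo2 knockdown set these genes apart before stable iPSC formed. None of the 10 member probe sets differed 2-fold between the cultures, where 0.805% of all probe sets were up by that much and 0.779% down in the culture labelled Sumo2 knockdown. Every member value in both cultures lay under the floor. The largest step was that of Zscan4c, which went from 5.58 to 4.68, lower by a log2 difference of -0.90 in the culture labelled Sumo2 knockdown. Zscan4d differed by -0.56 and Zscan4b by -0.35, while Zscan4e differed by 0.19 and Zfp352 by 0.37. Of the 8 members 3 were higher in that culture, with a median difference of -0.10, beside -0.02 over all probe sets. The comparison is of 1 array with 1, so it has no replicate check and no test. A level under the floor was taken as not told from background.

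Between the 2 iPSC lines the Zscan4 probe sets and Zfp352 differed little, while Tdpoz3, Tcstv3 and Usp17la read higher in the 10 day line. Differences of the 10 day from the 38 h line were 0.12 for Zscan4c, 0.08 for Zscan4d, -0.02 for Zscan4b and -0.06 for Zscan4e, and 0.06 and 0.11 for the shared probe sets. The sign for Zscan4b turned with cyclic loess scaling (0.01). Tdpoz3 was higher by 2.65 in the 10 day line, or at least 5.06-fold. Tcstv3 was higher by 1.91 as read, but under the floor in both lines, and Usp17la by 1.13, at least 1.89-fold. Zfp352 differed by 0.01. Thus 3 of 10 member probe sets were at least 2-fold higher in the 10 day line and none lower, against 1.78% and 0.847% of all probe sets, and 1 of 10 counted from the floor.

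Several other copies of the Tdpoz and Usp17l families also read higher in the 10 day line. Tdpoz2 was higher by 1.13 in the 10 day line (6.87 to 8.0), as much as Usp17la, Tdpoz4 by 0.81 under the floor, Usp17le by 0.79 and Usp17ld by 0.77, whereas Tdpoz1 (-0.46) and Tdpoz8 (-0.44), both under the floor, and Zscan4a (-0.33) read lower. The second Tdpoz2 probe set, under the floor on every array, differed by 0.16. Of the 16 other family probe sets 12 were higher in the 10 day line, beside 44.9% of all probe sets, and 1 by 2-fold. The 12 count the identical pair of Tdpoz5 and Tdpoz7 probe sets, and 10 of the 16 were under the floor on all arrays. With 1 array for each line these differences have no test, and culture, passage or clone behind a line cannot be told apart.

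**Figure D2:**
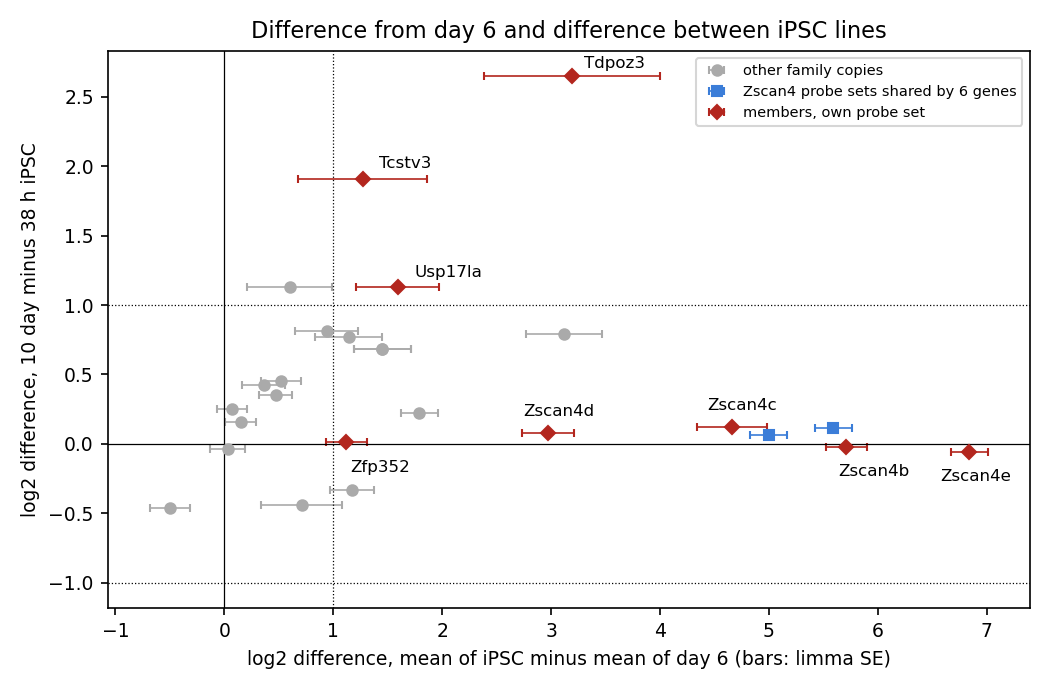
Log2 difference of the iPSC mean from the day 6 mean (horizontal axis, bars 1 limma SE each way) against the log2 difference of the 10 day from the 38 h line (vertical axis, 1 array each, no error) for the members' own probe sets, the shared Zscan4 probe sets and 16 other family copies; dotted lines mark 2-fold. The 6 Zscan4 member and shared probe sets lie at 2.97 or above on the horizontal axis and between -0.06 and 0.12 on the vertical one, while Zscan4a, among the other copies, lies at 1.17 and -0.33. Tdpoz3 and Tcstv3 lie highest, at 2.65 and 1.91, and Usp17la and Tdpoz2 share a vertical position of 1.13.

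**Figure D3:**
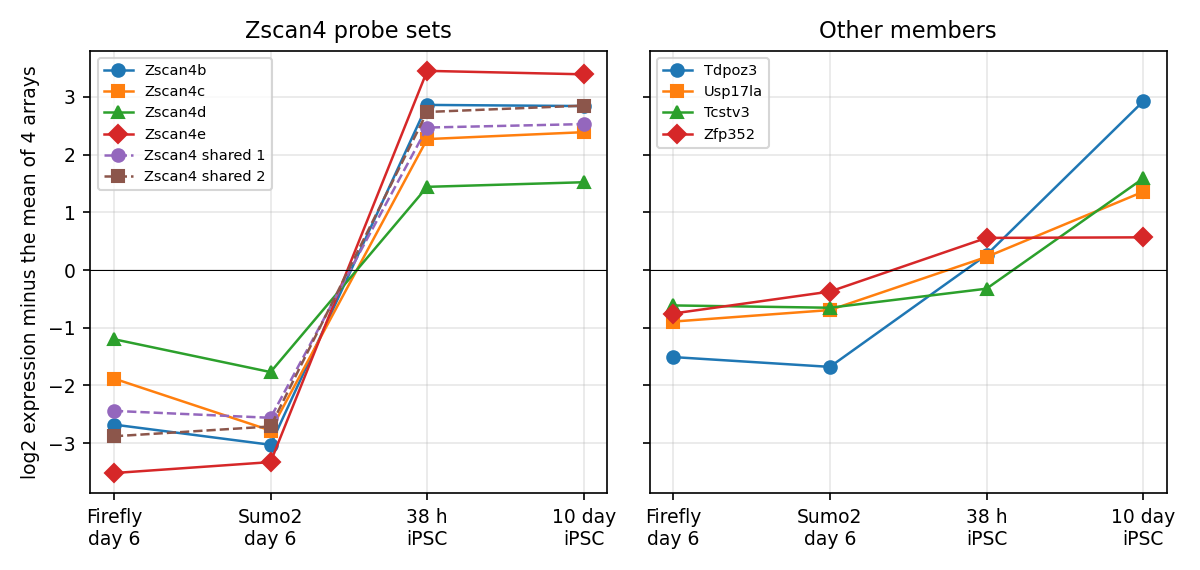
Log2 expression minus the mean of the 4 arrays (vertical axis) for each member probe set on each array (horizontal axis), Zscan4 on the left and the other members on the right; lines join the values of 1 probe set and dashed lines are the shared ones. The Zscan4 lines are level between the iPSC arrays, and those of Tdpoz3, Tcstv3 and Usp17la climb from the 38 h to the 10 day array.

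By the root mean square distance between centred values over the 4 arrays, the gene closest to the mean Zscan4 profile was Rex2, at 0.125, out of 13289 single-symbol probe sets at or above the floor on at least 1 array. Rex2 read 4.44, 4.27, 9.26 and 9.20. Next came 2410141K09Rik (0.194), Gm10324 (0.268), Gm7762 (0.294) and Zfp979 (0.302). The list of 10 closed with the epithelial transcription factor gene Elf3 (0.31), Triml2 (0.325), Gm11546 (0.357), Triml1 (0.365) and Sox2 (0.435). Each of these 10 was under the floor on both day 6 arrays and above it on both iPSC arrays. The members themselves lay at 0.262 for Zscan4c, 0.333 for Zscan4b, 0.925 for Zscan4e and 1.04 for Zscan4d, and at 1.32 to 2.01 for the other 4. The 10 genes were picked for their small distance, so it is a description and no comparison with the members. The measure takes in the size of the differences as well as their shape, over 4 arrays with 2 cell states, and rests in part on day 6 values under the floor.

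Other genes of the 2-cell stage rose in part. Of 34 with a probe set of their own, out of 43 listed, 9 rose, none fell, and 25 did not pass the limma rule, beside 7.83% higher and 5.29% lower of all single-symbol probe sets. At an unadjusted p under 0.05, 18 were higher and 1 lower, beside 20.8% and 16.6% of all probe sets. Of the 34, 23 were under the floor on every array. The list overlaps the 16 other family probe sets described above, so the counts of the 2 groups are not separate. The probe sets of Tcstv1, Tdpoz1, Tdpoz2, Tdpoz4, Usp17lb, Usp17lc, Usp17ld, Usp17le and Zfp353 are in both. Usp17le and Usp17lb, among those that rose, are thus counted in both. Gm4340, a predicted gene of a multi-copy family, read 8.36, 7.64, 11.79 and 11.55 and rose most (3.67, SE 0.26, limma adjusted p = 0.00195), with day 6 values already above the floor. The nuclear body gene Sp110 read 5.98, 5.49, 8.30 and 9.24 and rose by 3.03 (SE 0.36, limma adjusted p = 0.00539), while its other 2 probe sets differed by 1.12, which passed, and 0.69, which did not (limma adjusted p = 0.0575). Tmem92 (2.66), Pramel13 of the PRAME-like family (2.56) and Gm2035 (2.43) passed as well, Pramel13 not without the Firefly array (adjusted p = 0.0538). Gm2035 read 3.95, 4.11, 6.56 and 6.36, under the floor on every array. So did Usp17lb and Gm2016, the last named after its values were seen, making 3 of the 9 in all. Their differences were taken as not told from background, which was not tested. The list's median was 0.50. In the 10 day line 26 of 34 read higher than in the 38 h line, beside 44.9% of all probe sets. That count takes in probe sets under the floor on every array. By 2-fold 4 of the 34 were higher there, beside 1.78% of all probe sets. These were Tdpoz2, Pramel11, Gm7102 and Pramel31, the last 3 named after their values were seen. From the floor it was 1 of them, Tdpoz2. The 38 h array held the list's count down: without it 14 rose, Tdpoz4, Usp17ld and Pramel31 among those gained.

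Of the reported activators, Dppa2 and Dppa4, paired chromatin proteins of early embryos, rose most, and Dux did not pass. Dppa2 read 5.93 on the Firefly array, 8.05 on the Sumo2 array, 11.16 in the 38 h line and 11.93 in the 10 day line, rising by 4.55 (SE 0.69, limma adjusted p = 0.0104). Dppa4 read 6.25, 6.60, 9.52 and 9.44 and rose by 3.05 (SE 0.19, limma adjusted p = 0.00158). The Dux probe set, listed as Duxf3 and named after its values were seen, read 3.84, 3.86, 4.22 and 4.32, far under the floor on all arrays (log2 difference 0.42, 95% interval 0.14 to 0.70, limma adjusted p = 0.0501). The T-box factor gene Tbx3 rose by 2.46 (SE 0.26, limma adjusted p = 0.00399), and the chromatin remodeller gene Smarca5 (1.05) and Nelfa (1.02), of a complex that pauses RNA polymerase, rose by just over 2-fold and not after cyclic loess (0.86 and 0.85). Nr5a2, a nuclear receptor gene, read 7.25, 9.08, 9.95 and 9.72 and did not pass (limma adjusted p = 0.0927), though it did without the Sumo2 array (0.0194) and with 1 probe set per gene at or above the floor (0.0427).

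In all 5 of 9 activators rose, beside 7.83% of all single-symbol probe sets, and none fell by the limma rule or at an unadjusted p under 0.05. The count was 6 without the Sumo2 array, 3 without the Firefly array (Smarca5 lost at an adjusted p of 0.0777, Nelfa at a difference of 0.87) and 3 after cyclic loess. With 1 probe set per gene at or above the floor 6 of 6 rose, beside 14.3% of all probe sets in that fit. At day 6, 8 of 9 read higher on the Sumo2 than on the Firefly array, beside 47.4% of all probe sets. Of these, Duxf3 (by 0.02) and Obox3 were under the floor on all arrays, and Dppa4 on both day 6 arrays. On the same arrays 0 of 11 fibroblast markers read higher with Sumo2 knockdown (1 of 11 after cyclic loess), with a median difference of -0.49 and a summed linear level of 12500 against 9550, and their part in this was not tested. Dppa2 and Nr5a2 were 2-fold higher there, Dppa2 by at least 1.40 on the log2 scale and Nr5a2 by 1.82. At that stage the Zscan4 readings of the same culture were under the floor. Obox3 and Obox5, homeobox genes of the early embryo named after their values were seen, were under the floor on all arrays.

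Reported repressors of the 2-cell genes also rose in part. Of 28 with a probe set of their own, out of 30 listed, 12 rose by the limma rule, none fell and 16 did not pass. By that rule 7.83% of all single-symbol probe sets rose and 5.29% fell. All 28 were at or above the floor on at least 1 array, unlike many of those probe sets. With 1 probe set per gene at or above the floor 12 of 28 rose, beside 14.3% of all probe sets in that fit. At an unadjusted p under 0.05, 22 were higher and 2 lower, beside 20.8% and 16.6% of all probe sets, and the median difference was 0.91. Zfp42 (Rex1) read 5.72, 6.10, 10.34 and 10.23 and rose by 4.38 (SE 0.20, limma adjusted p = 0.000899), and the RNA-binding protein gene Lin28a read 6.64, 7.14, 10.07 and 9.04 and rose by 2.66 (SE 0.38, limma adjusted p = 0.00884). Rif1 (2.16), which acts at telomeres and replication origins, the Polycomb protein gene Rybp (1.48), the chromatin assembly gene Chaf1b (1.42) and L3mbtl2 (1.34) of a Polycomb complex followed. The count was 4 without the Firefly array, with Lin28a (adjusted p = 0.0692) and L3mbtl2 (0.0812) among those lost, and 7 after cyclic loess. Between the day 6 cultures 25 of 28 read above the Firefly array in the one labelled Sumo2 knockdown (22 after cyclic loess), beside 47.4% of all probe sets, none by 2-fold, and their median was 0.36. Sumo2 was among the 3 that were not, at -0.09. The summed linear level of 16 naive pluripotency markers was 6060 on the Firefly array, 8440 on the Sumo2 array, and 29500 and 35000 on the 38 h and 10 day arrays. These markers are not separate from the regulators, as they include the repressor Zfp42 and the activator Tbx3. Klf4, which fell, weighs heavily in the day 6 sums, at 11.93 on the Firefly and 12.15 on the Sumo2 array. The part of these markers in the differences of the regulators was not tested.

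**Figure D4:**
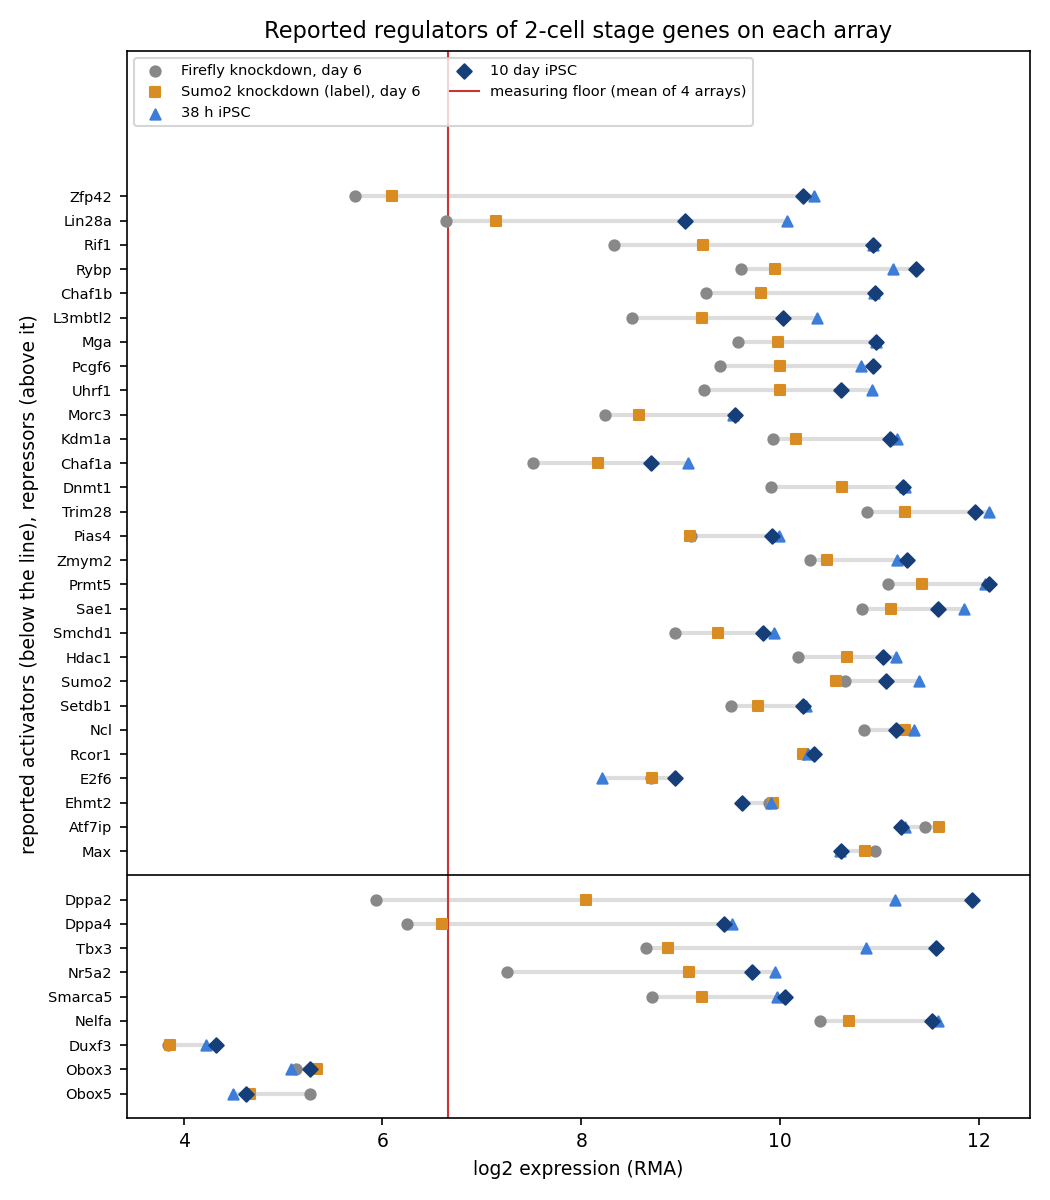
Log2 RMA expression (horizontal axis) of 9 reported activators (below the black line) and 28 reported repressors (above it) of 2-cell stage genes, each sorted by the difference between iPSC and day 6 arrays, with 1 point for each array; the red line is the mean measuring floor. Dppa2 spans 5.93 to 11.93 with the Sumo2 array in between, Duxf3 stays at 3.84 to 4.32, and most repressors are highest on the iPSC arrays.

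Telomere and recombination genes that have been linked to Zscan4 rose in 5 of 9 cases, beside 7.83% of all single-symbol probe sets. None fell by the limma rule or at an unadjusted p under 0.05, and their median was 1.18. With 1 probe set per gene at or above the floor 5 of 8 rose, beside 14.3% of all probe sets in that fit. The meiotic cohesin gene Smc1b read 4.96, 5.50, 7.23 and 9.15 and rose by 2.96 (SE 0.62, limma adjusted p = 0.0257), though not without the Firefly array (0.146) or the Sumo2 array (0.0899). It was 1.92 higher in the 10 day than in the 38 h line, and above the floor in both. Rif1 rose by 2.16, the helicase gene Blm by 2.11 (SE 0.32, limma adjusted p = 0.0102), the meiotic recombinase gene Dmc1 by 1.76 (SE 0.18, limma adjusted p = 0.00403) and Terf1, which binds telomere repeats, by 1.18 (SE 0.25, limma adjusted p = 0.0271, lost without the Firefly array at 0.124 and without the 10 day array at 0.0731). Tert, the telomerase catalytic subunit gene, read 7.41, 7.83, 8.67 and 8.26 and did not pass (0.85, limma adjusted p = 0.0572). Without the Firefly array 3 of the 9 rose.

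Markers of other cells that express some of these families were checked alongside. Of 13 oocyte markers 12 were under the floor on all arrays, among them the growth factor genes Gdf9 and Bmp15 and the maternal effect gene Nlrp5, and Zp3 alone rose (1.37, limma adjusted p = 0.00608, lost at 0.0507 without the Firefly array). Their summed linear level was 555 to 583 at day 6 and 626 to 650 in iPSC. Germ cell markers did move with the Zscan4 genes: 4 of 5 rose, beside 7.83% of all single-symbol probe sets, and their summed linear level went from 186 to 236 at day 6 to 2040 to 2450 in iPSC. The RNA helicase gene Ddx4 rose by 4.34, Mael of the piRNA pathway by 4.33, Dazl by 4.26 and Stra8 by 1.36 (not without the Firefly array, adjusted p = 0.0953, or the Sumo2 array, 0.103), while Tdrd1 was under the floor on all arrays. What part they have in the readings of the members was not tested. Of 7 trophoblast markers 2 rose, the transcription factor genes Ascl2 (1.95) and Eomes (1.78), while the defining genes Cdx2 and Elf5 were under the floor throughout. Of 7 primitive endoderm markers Pdgfra rose (1.5) and Dab2 fell by 2.0 on the log2 scale. Neither call was kept without the Firefly array, where the differences were 1.06 and -1.81. None of the 7 was higher in the 10 day line, beside 44.9% of all probe sets. Foxa2 (-0.05) and Sox17 (-0.06, under the floor on all arrays) hardly differed between the lines.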

How the data were processed

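Total RNA of 4 groups was hybridised to 1 array each. The deposited log2 values, 1 per probe set and array, come from RMA as the authors ran it in Expression Console (Affymetrix), according to the submitters' processing notes, whose versions are not given in the sources used here. RMA corrects background, quantile-normalizes the arrays and summarises each probe set. Base 2 was taken as the scale RMA writes (values 2.98 to 13.7), and RMA pulls differences of dim probe sets towards 0. Arrays carry no counting depth, and their number limits the precision. The platform annotation names 1 gene for 23521 of the 41345 probe sets and several for 1814, and lists none for 16010. The members' own probe sets are those with a single symbol, and the shared ones are given apart.

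The mean of both iPSC arrays was compared with the mean of both day 6 arrays by limma 3.58.1 in R 4.3.3 (lmFit, eBayes with intensity trend) on every probe set, called where the p-value, adjusted by Benjamini-Hochberg over all of them, was under 0.05 and the change 2-fold. The arrays of a side are not replicates of 1 condition, and nothing says how separate the cultures were, so p-values measure only the spread between these arrays. Day 6 cultures, and iPSC lines, were compared 1 array against 1 by a 2-fold rule without a test. Genes with several probe sets were represented by the one with the highest mean. The script was tested on simulated data. All members were described. Of each list up to 6 genes with the largest difference are named, with Sumo2, Nanog, Sox2, Thy1 and the 10 genes closest to the mean Zscan4 profile; others are named for small counts or as defining markers. The members and lists were chosen with earlier results of these data known. Alternatives were the filter, the scaling, the variance model, the thresholds and leaving out each array.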

Additional observations from a re-analysis of the deposited data

How the results depend on the processing

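The median log2 difference of the members' own probe sets between iPSC and day 6 arrays was 3.08. It was 3.92 both with probe sets under the floor left out and with 1 probe set per gene, since Zfp352 and Tcstv3 then drop out, and 1.82 with values taken from the floor. Leaving out each array gave 2.39 to 3.76, lowest without the 10 day and highest without the 38 h array. The count of called member probe sets, 9 of 10, ran from 6 without the Firefly array to 10 without the 38 h array, and was 9 after cyclic loess. Leaving out the Firefly array took the count over all probe sets from 3744 to 1931. Between the day 6 cultures 0 of 10 differed 2-fold and 1 of 10 1.5-fold (Zscan4c). Between the iPSC lines 3 of 10 differed 2-fold as read and 1 of 10 from the floor. No member call changed direction in the alternatives run. No paired analysis was possible because the labels carry no replicate numbers and each group has 1 array. Signal over background limits all day 6 values of the members.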

Other observations

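The genes around the Zscan4 cluster were read as a description of its surroundings. They were 21 genes with a probe set of their own and no family symbol. In the GRCm38.p6 gene order 10 lay nearest on each side of the cluster on chromosome 7 and 1 inside it. Of the 21, 19 were under the floor on all arrays, most of them vomeronasal receptor genes. Zik1 (6.57, 6.44, 7.94 and 7.32 in the order Firefly, Sumo2, 38 h and 10 day) and Nlrp4b (6.61, 6.39, 7.31 and 7.89), named after their values were seen, rose by 1.13 and 1.10 (limma adjusted p = 0.0301 and 0.031), and neither did without the Firefly array or without the Sumo2 array. The gene inside the cluster, Gm6909, read 5.23, 5.56, 5.27 and 5.73. Thus 2 of 21 rose, beside 7.83% of all single-symbol probe sets. The median difference of the 21 was -0.07, beside 5.18 for the 4 Zscan4 members. With 19 of the 21 under the floor on all arrays, that median is mostly of dim probe sets. The members were chosen with earlier results known, so the contrast is a description and no test.

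The loci of the other members were read the same way, over 20 genes without a family symbol each (10 for Tcstv3, all on 1 side of it). Family copies were left out by symbol alone. Whether neighbours under other names, such as those around Tcstv3, are relatives of the members was not checked. By the limma rule 7.83% of all single-symbol probe sets rose and 5.29% fell. Around Usp17la 0 of 20 rose or fell by the limma rule (0 and 3 at an unadjusted p under 0.05), and 19 were under the floor on all arrays. Around Tcstv3 0 of 10 rose or fell by the limma rule (4 and 1 unadjusted), and 2 of the 10 were at least 2-fold higher in the 10 day than in the 38 h line as read, B020031M17Rik by 1.91 and Gm20767 by 1.11, and 0 from the floor. The 10 include AF067061, which is also among the 2-cell stage genes listed. Around Tdpoz3 S100a11 alone passed and fell by 1.55. Around Zfp352 Elavl2 (1.05) and Caap1 (1.04) rose, and Cdkn2a and Cdkn2b, which encode inhibitors of the cell cycle, fell by 1.28 and 1.19. These genes were named after their values were seen.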
